A study of Mus musculus with 36 samples.

Results

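The genes described here are 9 genes of the Sonic hedgehog pathway (Shh, Ptch1, Smo, Gli1, Gli2, Gli3, Boc, Cdon and Hhip), taken from a list of the pathway by their symbols and not by any measured value. All 9 were found among the 40205 gene features of each library. They were measured by RNA sequencing in mouse fetal neural stem cells (NSCs) and in the extracellular vesicles (EVs, membrane particles released into the medium) that these cells shed, and the questions were how far their RNA differed between EVs and cells, and whether it changed with ethanol in the same way in each culture.

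Sonic hedgehog (Shh) is a secreted protein that patterns the ventral side of the forebrain and drives the division of neural progenitors. It binds the receptor Patched1 (Ptch1), with Boc and Cdon as co-receptors, and this releases the membrane protein Smoothened (Smo) from inhibition. Smoothened signals at the primary cilium to the transcription factors Gli2, the main activator, and Gli3, which acts chiefly as a repressor when no ligand is present. Gli1 and Ptch1 are transcribed in response, as is Hhip, which binds and sequesters the ligand, so the levels of these genes are commonly read as pathway output. Loss of hedgehog signalling is a known consequence of ethanol in the embryonic head.

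The NSCs came from the dorsal telencephalon, the future isocortex, of fetuses at gestational day 12.5 from C57BL/6J (Ai14) mice. In each of 3 pregnancies (called sets 3, 4 and 5) tissue was pooled by fetal sex, which gave 1 female and 1 male culture a set, or 6 cultures. They were grown as neurospheres in serum-free medium with mitogens at passages 7 to 10 and exposed for 5 days to 0 (control), 120 (moderate) or 320 mg/dL (heavy) ethanol, with 4 flasks as a sample. RNA of the cells and of the EVs from their medium gave 36 libraries, 18 of each kind, or 3 for each of 12 combinations of location, sex and dose.

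The EV libraries held 959217 to 5509952 counts and the cell libraries 26566061 to 55282322 counts. The neural stem cell list had 8 of 9 genes at a mean of 1 CPM or more in cells, and Sox2 at 0 counts in every library. Levels are given as counts-per-million values (CPM), scaled over the 36 libraries by the trimmed mean of M-values (TMM) method. Of 917 protein-coding genes that lie inside the span of another gene in RefSeq, 95.1% had 0 counts in the 18 cell libraries, against 9.6% of 13017 that overlap no gene. Reads in introns may therefore have been counted and reads shared by overlapping genes dropped, so a 0 for such a gene carries no information about its RNA. In RefSeq none of the 9 genes lies inside another gene, and the share of the span that overlaps other genes was highest for Boc (9.27%) and Gli2 (7.31%) and 0% for Ptch1, which in GENCODE overlaps A930032L01Rik and Gm61506 on its own strand. Of the dorsal transcription factors, Pax6 had 19.6 ± 7.43 CPM and Emx1 0.223 ± 0.105 CPM in cells (SD, n = 18).

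The level of the pathway genes in cells spanned a wide range. On GRCm39 the genes range in span from Shh at chr5:28661813-28672254 (minus strand), Gli1 at chr10:127165751-127177865 (minus strand), Smo at chr6:29735407-29762532 (plus strand) and Ptch1 at chr13:63656142-63721412 (minus strand) to Gli3 at chr13:15637809-15904611 (plus strand), and levels of different genes were compared per length. Per kilobase of gene span, on the CPM scale, Ptch1 (1.60 ± 0.746) and Smo (1.47 ± 0.146; SD, n = 18 for each gene) were highest and did not differ beyond their spread. Cdon followed with 0.461 ± 0.211 and Shh with 0.359 ± 0.535, a mean that rested on 1 culture, as described next. Boc (0.0827 ± 0.0218), Gli2 (0.0737 ± 0.0168), Gli3 (0.0635 ± 0.0324) and Gli1 (0.0414 ± 0.0234) followed, each below the one before it by less than the larger SD of the pair, as was Hhip, the lowest (0.0219 ± 0.00977). Per kilobase of exons in place of the span, Gli2 and Gli3 stood at ranks 4 and 5 of the 9 and Shh at rank 6. For comparison, 12 genes of tissues outside the brain together held 0.0065 to 0.015 CPM per kilobase of span in cells, below the median of each of the 9. The highest single gene of the 12, Ttn, had a mean of 0.0212, close to that of Hhip (0.0219).

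**Figure D1:**
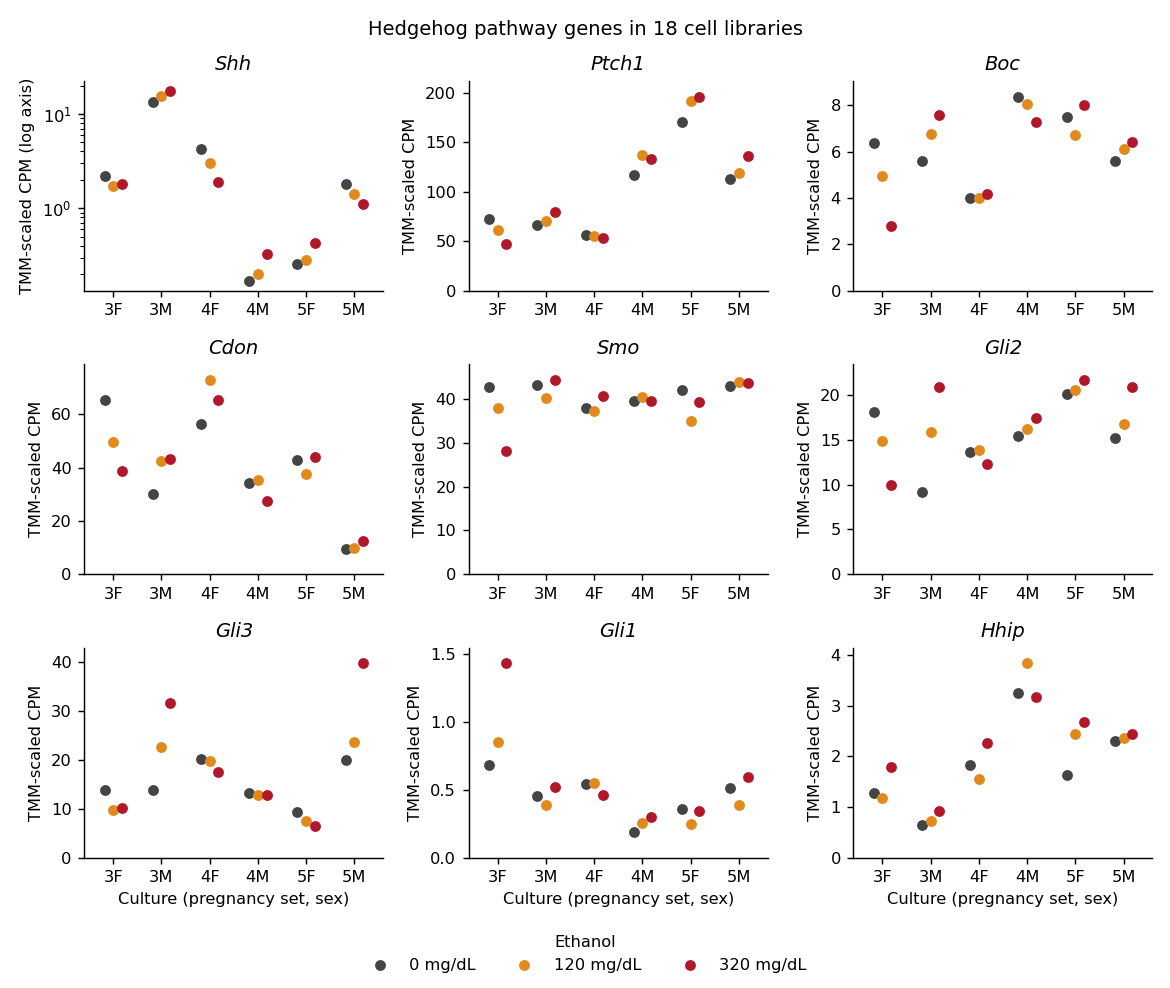
Level of each pathway gene in the 18 cell libraries (TMM-scaled CPM on a linear axis from 0, but a log axis for Shh), by culture (3F is the female culture of set 3, and so on) and ethanol dose (colour). Shh is highest in the male culture of set 3 and lowest in the male culture of set 4, while Smo stays between 28.1 and 44.4 CPM.

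The cultures differed far more than the doses. Differences among the 6 cultures in cells passed the threshold (edgeR's quasi-likelihood F test with a term for dose, Benjamini-Hochberg adjusted p under 0.05) for 7 of the 9 genes, where 68% of all 18725 genes tested did. The test takes the 3 libraries of a culture, which differ in dose, as its replicates.

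Shh, the ligand, varied most. The male culture of set 3 held 13.5 CPM at control, 15.5 at 120 mg/dL and 17.7 at 320 mg/dL. In the female culture of set 4 the values in that order were 4.21, 3.00 and 1.90 CPM, in the female culture of set 3 they were 2.21, 1.73 and 1.79 CPM, and in the male culture of set 5 they were 1.79, 1.43 and 1.12 CPM. The male culture of set 4 stayed at 0.168, 0.201 and 0.331 CPM and the female culture of set 5 at 0.259, 0.283 and 0.432 CPM. The culture means thus spread 66.7-fold (adjusted p = 7.87e-09), and the highest and lowest were both male cultures. The lowest library of set 3 male lay above every other cell library.

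The receptor Ptch1 was ordered otherwise. Its mean was 186 ± 13.8 CPM in the female culture of set 5 (SD, n = 3 doses) and 129 ± 10.2 CPM in the male culture of set 4, which are the cultures with the least Shh. It was 72.3 ± 6.80 CPM in the male culture of set 3, where Shh was highest, and 55.0 ± 1.76 CPM in the female culture of set 4 (adjusted p = 6.99e-07 across cultures). Ptch1 was at 113 to 196 CPM in the 9 libraries of the 3 cultures with the least Shh and at 47.2 to 79.8 CPM in the 9 of the other 3.

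Hhip, the ligand-binding inhibitor and pathway target, was lowest where Shh was highest, at 0.761 ± 0.139 CPM in set 3 male, and highest in set 4 male at 3.43 ± 0.363 CPM (adjusted p = 7.32e-06). Gli1, the third transcribed target, was lowest in set 4 male and set 5 female, the cultures with the least Shh. Libraries of these cultures held 0.19 to 0.359 CPM of Gli1, and every other cell library 0.383 CPM or more. Gli1 was not highest in set 3 male, where Shh was highest. Its means ran from 0.246 ± 0.0543 CPM in set 4 male to 0.986 ± 0.393 CPM in set 3 female. That is a 4.01-fold spread (adjusted p = 0.000281), on 7 to 39 counts a library. With 6 cultures, these orders are given as a description and no correlation was tested.

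**Figure D2:**
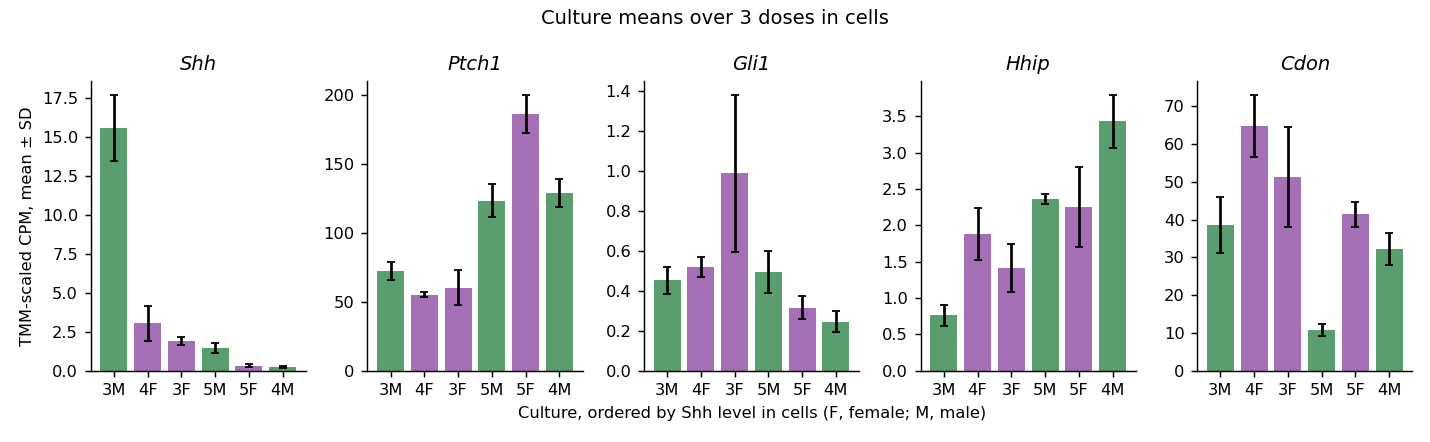
Mean level of 5 pathway genes in cells (TMM-scaled CPM, error bars the SD over 3 doses) for the 6 cultures, ordered by their Shh level (purple female, green male). From left to right Shh runs from 15.6 to 0.233 CPM, while Ptch1 and Hhip tend to be higher on the right and Cdon is lowest in the male culture of set 5.

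Of the co-receptors, Cdon had a mean of 10.7 ± 1.61 CPM in the male culture of set 5 and 32.2 to 64.9 CPM in the other 5 (adjusted p = 2.34e-06), and the 3 libraries of set 5 male were the lowest of the 18. Boc spread 1.95-fold, from 4.05 ± 0.102 CPM in set 4 female to 7.91 ± 0.569 CPM in set 4 male (adjusted p = 0.00859, and 0.195 without set 4). Gas1, another co-receptor, was at 47.4 to 65.7 CPM in the culture means, and its differences did not pass the test (adjusted p = 0.159).

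Smo, the signal transducer, spread 1.20-fold among culture means, and its differences did not pass the test (adjusted p = 0.384). The same held for Gli2, whose means ran from 13.3 to 20.8 CPM (adjusted p = 0.254, and 0.00364 without set 3, where its 2 cultures had opposite orders of dose). Gli3 differed, from 7.72 ± 1.38 CPM in the female culture of set 5 to 27.8 ± 10.6 CPM in the male culture of the same set (adjusted p = 0.000712).

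Genes that hedgehog signalling helps to set along the dorsal to ventral axis differed among the cultures, as most genes did. Of those tested, 10 of 11 ventral transcription factors, 7 of 7 dorsal ones and 6 of 8 target genes passed, beside 68% of all genes. So did 8 of 8 neural stem cell markers tested. The ventral factor Nkx2-1 was at 0.0596 ± 0.0315 CPM in the male culture of set 3, the lowest of the 6 and the culture with the most Shh. That value is near the floor, since 3 counts make 0.0608 to 0.0817 CPM of the totals of these libraries. In the female culture of set 4 Nkx2-1 was at 0.618 ± 0.123 CPM. Olig2, of progenitors that respond to hedgehog, was highest in set 3 female (147 ± 37.6 CPM) and lowest in set 5 male (40.7 ± 3.10 CPM), and the dorsal factor Pax6 ran from 9.55 ± 0.26 CPM in set 4 female to 31.3 ± 6.77 CPM in set 5 female. The cell cycle gene Ccnd1 was at 708 ± 69.6 CPM in set 4 female and 146 ± 48.1 CPM in set 5 female.

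Between EVs and cells, Ptch1 and Cdon were lower in EVs and Smo was higher, while Boc was lower by a margin that depended on the scale and libraries and Shh was nearly absent from EV counts. Over 18 EV and 18 cell libraries, with terms for sex and dose, 1 of the 9 genes passed the threshold as higher, where 41.9% of the 21333 genes tested did, and 4 as lower (Shh, Ptch1, Cdon and Boc), where 40.7% did. Shh is among them only through its counts in cells, since it did not pass the filter on low counts in EVs, so its values are given as a description. The median log2 fold change was -0.10 over the 9 and 0.05 over all genes tested. In this fit the doses of a culture entered as separate libraries, with no term for the culture. With counts summed over doses, Smo (0.64 on the log2 scale, adjusted p = 0.0315) and Shh still passed. So did Ptch1 (-1.11, adjusted p = 0.000696) and Cdon (-1.23, adjusted p = 0.000658), while Boc did not (adjusted p = 0.0585). For the other lists below, no result with the doses summed is given. In bulk RNA a lower share of particles that carry a transcript and less of it in each cannot be told apart.

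Shh had 0 to 2 counts in each EV library (19 in all 18, with 5 libraries at 0) and 8 to 1133 counts in each cell library. In CPM it ranged from 0 to 1.79 in EVs (median 0.284) and from 0.168 to 17.7 in cells (median 1.76). The EV level was lower in 14 of 18 pairs, and 5 EV libraries lay below every cell library.

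Ptch1 ranged from 26.7 to 73.1 CPM in EVs (median 48.0) and from 47.2 to 196 CPM in cells (median 96.4). It was lower in EVs in 17 of 18 pairs, by -1.12 ± 0.18 on the log2 scale (SE, adjusted p = 8.73e-07), and 9 EV libraries lay below every cell library. Cdon was lower in 17 of 18 pairs as well, at 6.83 to 34.1 CPM in EVs (median 16.6) and 9.50 to 72.9 in cells (median 40.6), a log2 difference of -1.02 ± 0.23 (adjusted p = 0.000109). Boc differed least of the 4, by -0.37 ± 0.14 (adjusted p = 0.0185), with 2.61 to 8.14 CPM in EVs (median 4.48) and 2.81 to 8.38 in cells (median 6.41), so the groups overlapped nearly throughout. Boc stayed lower in 12 of 16 alternatives and passed the threshold in 6. It did not pass without set 4 (adjusted p = 0.154), without set 5 (0.0792), without the 320 mg/dL cell library of set 3 female (0.622), without the 120 mg/dL cell library of set 3 male (0.481), in the control libraries alone (0.628) or with counts summed over doses (0.0585).

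Smo was the pathway gene that was higher in EVs. It ranged from 26.7 to 176 CPM there (median 75.4) and from 28.1 to 44.4 CPM in cells (median 40.4), and 14 of 18 EV libraries lay above every cell library. The log2 difference was 0.77 ± 0.15 (adjusted p = 1.07e-05). The 4 libraries that were not above came from the female cultures of sets 4 and 5.

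The Gli genes and Hhip did not pass the test. The log2 difference was -0.004 ± 0.125 for Gli2 (adjusted p = 0.975), -0.10 ± 0.19 for Gli3 (adjusted p = 0.632), 0.42 ± 0.30 for Gli1 (adjusted p = 0.196) and -0.04 ± 0.31 for Hhip (adjusted p = 0.90). Gli1 had 0 to 8 counts in each EV library and, like Shh, did not pass the filter on low counts in EVs, so its values are given as a description. The values near 0 depend on how EV and cell libraries are put on a common scale: with median-of-ratios size factors the median of all genes moved from 0.05 to 0.61, Gli2 and Gli3 became higher in EVs (0.59 and 0.51, both past the threshold), Gli1 did too (0.98), and Boc turned to 0.20 without passing. Smo stayed higher and passed the threshold in all 16 alternatives run. Ptch1 and Cdon stayed lower in all 16 and passed in 15 and 12.

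**Figure D3:**
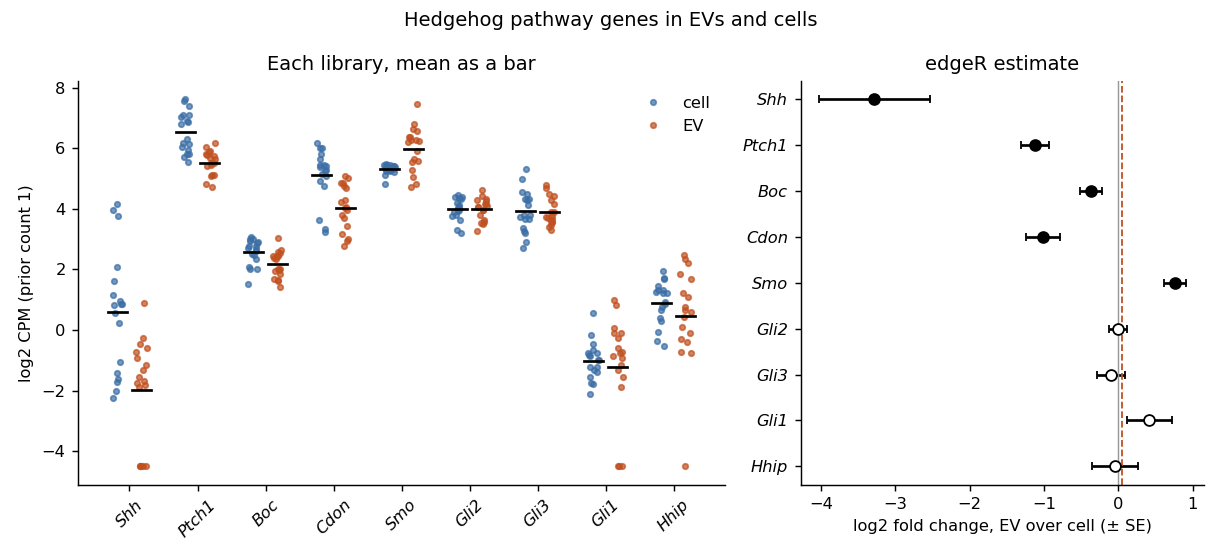
Left, log2 CPM (prior count 1) of each pathway gene in 18 cell (blue) and 18 EV (orange) libraries, with the mean as a bar; points at the bottom are libraries with 0 counts. Right, log2 fold change of EVs over cells ± SE, filled where the adjusted p was under 0.05, with the median of all genes tested (0.05) as a dashed line. Smo is the filled point on the right. Shh lies farthest to the left, and its estimate rests on 0 to 2 counts in each EV library.

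Several of the 9 were close to the level of genes that neural cells do not use. In EVs the 12 genes of tissues outside the brain held 0.0134 to 0.0476 CPM per kilobase of span over the libraries (median 0.0217). The EV medians of Hhip (0.0163), Shh (0.0272) and Gli1 (0.0433) fell within that range, and those of Gli3 (0.0508), Boc (0.0605) and Gli2 (0.0765) lay just above it. Cdon (0.192), Ptch1 (0.735) and Smo (2.78) were well above. The 12-gene list was itself higher in EVs for 7 of the 8 genes tested, at a list median of 2.34 on the log2 scale, and its part in the pathway results was not tested.

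Among other genes of the pathway, 13 of 21 for signal transduction and the cilium were lower in EVs and 2 higher, beside 40.7% and 41.9% of all genes (median log2 fold change -0.74, all genes 0.05). The largest falls were those of Cul3, a ubiquitin ligase scaffold that acts on Gli proteins (-2.15 ± 0.14, adjusted p = 3.32e-17), the ciliary GTPase Arl13b (-1.93 ± 0.15, adjusted p = 7.2e-15) and the kinase Csnk1a1 (-1.67 ± 0.12, adjusted p = 8.8e-16). The 2 that were higher were Gpr161, a ciliary receptor that restrains the pathway (1.19 ± 0.12, adjusted p = 1.77e-11), and Prkacb, a catalytic subunit of protein kinase A (0.84 ± 0.18, adjusted p = 7.38e-05).

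In the list for ligands and their release, 3 of 7 genes were higher in EVs and 1 lower, a share of higher genes close to the 41.9% of all genes. Scube2, which helps to free lipid-bearing Shh from the cell that makes it, ranged from 3.65 to 651 CPM in EVs and from 1.35 to 23.9 CPM in cells, a log2 difference of 4.34 ± 0.46 (adjusted p = 8.14e-11). Its relative Scube1 (4.31 ± 0.35, adjusted p = 6.19e-14) and the ligand Ihh (1.13 ± 0.35, adjusted p = 0.00337) were higher too, and Disp1, which exports the ligand, was lower (-0.71 ± 0.11, adjusted p = 2.48e-07). For Ihh the medians were 1.31 CPM in EVs and 0.906 CPM in cells. Its culture means in EVs ran from 0.521 CPM in set 5 female to 7.44 CPM in set 4 female. Of other binding proteins, Gas1 was lower (-1.83 ± 0.16, adjusted p = 1.5e-13) and Gpc3 was higher (1.98 ± 0.25, adjusted p = 2.78e-09).

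Of 8 target genes tested, 3 passed as higher in EVs and 1 as lower, beside 41.9% and 40.7% of all genes. Ccnd1 was lower in EVs (-0.64 ± 0.25, adjusted p = 0.0184), and Ccnd2 (1.34 ± 0.20, adjusted p = 1.72e-07) and Nkx6-1 (1.35 ± 0.37, adjusted p = 0.0013) were higher. For Nkx6-1 the medians were 1.87 CPM in EVs and 0.978 CPM in cells. Its culture means in EVs ran from 0.256 CPM in set 4 male to 12.6 CPM in set 4 female. Of the ventral transcription factors Lhx6, Lhx8, Dlx5 and Nkx2-1 were higher, by 2.77, 2.71, 1.95 and 1.23 on the log2 scale, and Olig1 (-0.95) and Olig2 (-0.82) were lower. Of 7 dorsal ones Tbr1 (3.22) and Emx1 (1.42) were higher, and Emx2 (-0.89) and Pax6 (-0.81) lower. The EV medians were 0.797 CPM for Lhx6, 0.828 for Lhx8, 1.03 for Dlx5, 0.525 for Nkx2-1 and 0.579 for Emx1. In EVs alone 3 of 12 ventral and 4 of 7 dorsal factors passed the filter on low counts. The rises of Lhx6, Lhx8, Dlx5, Nkx2-1 and Emx1 are therefore given as a description.

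Among the 6 cultures in EVs, 6 of the 7 pathway genes with enough counts differed, where 50.3% of 13193 genes tested did. Shh and Gli1 did not pass the filter on low counts there, and Boc did not pass the test (adjusted p = 0.54). The order of cultures was partly that of the cells. Ptch1 was highest in the female culture of set 5 (58.3 CPM) and lowest in the female culture of set 4 (29.8 CPM) in both locations (adjusted p = 0.0376 in EVs, but 0.362 without set 5, 0.0962 without the 320 mg/dL EV library of set 4 female, 0.487 with library totals as the scale and 0.274 with no filter on low counts). Cdon was lowest in set 5 male in both (7.93 CPM in EVs, adjusted p = 1.01e-05), but highest in set 4 male in EVs (31.7 CPM) and in set 4 female in cells. Smo was highest in set 5 male in both, and Gli3 was lowest in set 5 female in both but highest in different cultures. Gli2 shared neither its highest nor its lowest culture. For Hhip, set 4 male was highest in cells (3.43 CPM) and lowest in EVs (0.921 CPM), on 0 to 19 counts in each EV library.

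No pathway gene changed with ethanol in cells past the threshold. With the culture as a block, edgeR called 0 of 9 at 320 mg/dL and 0 of 9 at 120 mg/dL, where 0% of 18725 genes were called at either dose. DESeq2 called 0 of the 9 at both. At an unadjusted p under 0.05 there was 1 of the 9 at 320 mg/dL (Hhip), against 1575 of all genes, and 0 of the 9 at 120 mg/dL, against 476. The median log2 change of the 9 was 0.04 at 320 mg/dL and -0.03 at 120 mg/dL (all genes -0.001 and -0.01). Of the other pathway lists, too, edgeR called 0 genes in each ethanol comparison of cells, EVs and their ratio.

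The direction differed among the cultures for most of the 9 genes. Hhip was higher at 320 mg/dL than in control in 5 of 6 cultures, by 0.34 ± 0.13 on the log2 scale (adjusted p = 0.517), from a control range of 0.641 to 3.26 CPM to 0.913 to 3.18 CPM. Shh was higher at each step of dose in 3 cultures (set 3 male, set 4 male and set 5 female) and lower at each step in 2, with a fitted change of -0.16 ± 0.21 (adjusted p = 0.884). Ptch1 changed by 0.04 ± 0.10, Smo by -0.09 ± 0.08 and Gli1 by 0.32 ± 0.19 (adjusted p = 0.952, 0.828 and 0.686).

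Shh, Gli2 and Gli3 had the largest SD of the change at 320 mg/dL among cultures (0.78, 0.67 and 0.74 on the log2 scale, n = 6). Gli3 went from 13.9 CPM at control over 22.7 to 31.7 CPM in set 3 male and from 19.9 over 23.6 to 39.8 CPM in set 5 male. In the female cultures of the same sets it went from 13.8 over 9.69 to 10.2 CPM and from 9.23 over 7.40 to 6.52 CPM. In set 4 it was nearly level in males (13.3, 12.8 and 12.8 CPM) and slightly lower with dose in females (20.2, 19.7 and 17.6 CPM). The difference between sexes of the 320 mg/dL effect, females minus males, was -1.14 ± 0.27 (adjusted p = 0.219).

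Gli2 went from 9.21 over 15.9 to 20.9 CPM in set 3 male and from 18.1 over 14.9 to 9.92 CPM in set 3 female, and its sex difference of -0.92 ± 0.27 did not pass either (adjusted p = 0.219). Ptch1, Boc, Cdon and Smo were lower at each step of dose in set 3 female too, Boc from 6.38 over 4.97 to 2.81 CPM. The 320 mg/dL cell library of that culture had the lowest TMM factor of the 18 cell libraries (0.753), and its part in these values was not tested. For the sex difference of the 320 mg/dL effect edgeR called 0 of 9 in cells and 0 of 7 in EVs (background 0% in each), DESeq2 called 0 in each, and 3 of 9 in cells (Gli2, Gli3 and Ptch1) and 0 of 7 in EVs had an unadjusted p under 0.05, against 3368 and 522 of all genes.

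**Figure D4:**
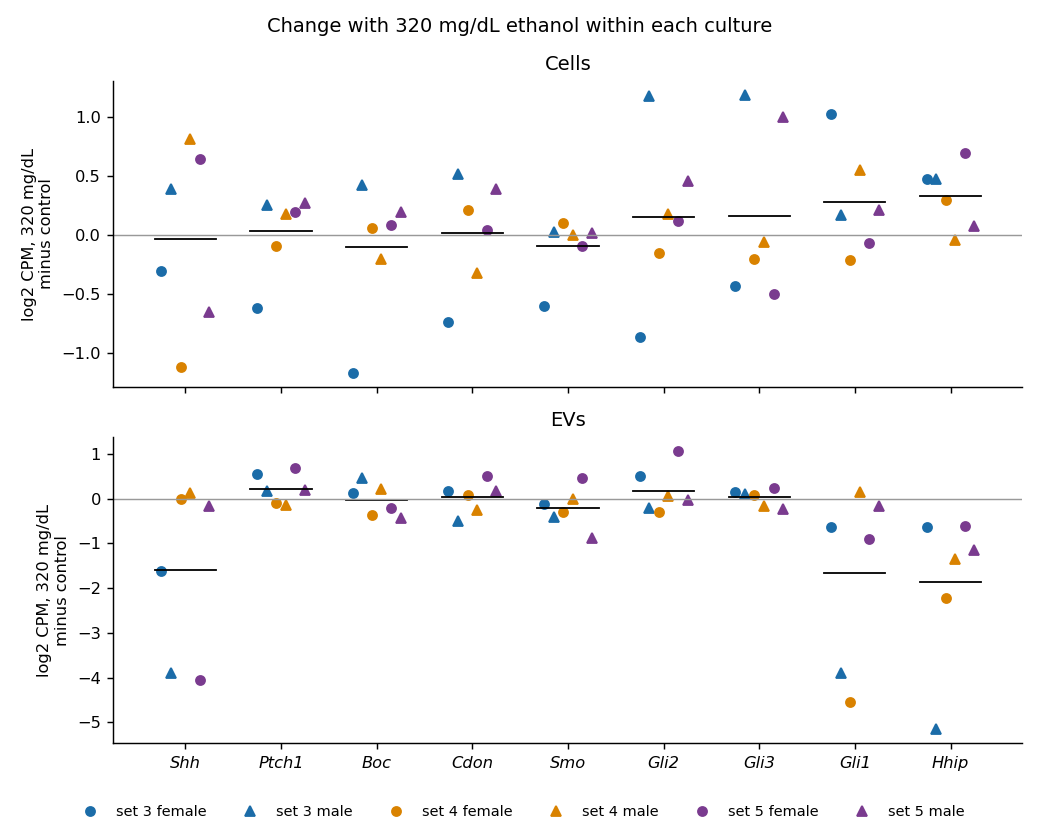
Change of each pathway gene with 320 mg/dL ethanol (difference of log2 CPM, prior count 1) in cells and in EVs, by culture (circles female, triangles male, colour the pregnancy set; black bars are means of 6 cultures). Changes in cells scatter around 0, with Gli3 near 1 in 2 male cultures, and Hhip in EVs lies below 0 in all 6 cultures; falls beyond 3 in EVs go to or near 0 counts.

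In EVs, edgeR called 0 of 7 pathway genes at 320 mg/dL, where 0.0758% of 13193 genes were called, and 0 of 7 at 120 mg/dL, where 0.00758% were. DESeq2 called 0 at both. At an unadjusted p under 0.05 there were 2 of 7 at 320 mg/dL (Hhip and Ptch1), against 1429 of all genes, and 0 of 7 at 120 mg/dL, against 784. The median log2 change of the 7 was 0.06 at both doses (all genes 0.01 and -0.003).

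Hhip was lower at 320 mg/dL in 6 of 6 cultures in EVs, by -1.29 ± 0.40 on the log2 scale (adjusted p = 0.21). The counts behind it were low. From control to 320 mg/dL they went from 16 to 8 in set 5 female, from 10 to 1 in set 4 female, from 8 to 2 in set 5 male, from 6 to 2 in set 4 male, from 5 to 0 in set 3 male and from 1 to 2 in set 3 female, a library whose total was 4244234 counts against 1124918 at control. In CPM the groups overlapped (0.895 to 5.50 at control, 0 to 3.57 at 320 mg/dL).

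Ptch1 was higher in EVs at 320 mg/dL in 4 of 6 cultures, by 0.26 ± 0.12 (adjusted p = 0.452). Smo changed by -0.23 ± 0.22, Gli2 by 0.21 ± 0.16, Gli3 by 0.06 ± 0.16, Cdon by 0.06 ± 0.13 and Boc by 0.01 ± 0.23, each with an adjusted p of 0.717 or more. For Shh and Gli1, which the filter removed, an exact permutation test over all sign changes of the 6 culture differences (two-sided) was used. Its smallest possible p is 0.0312 where no difference is 0. For Shh at 320 mg/dL the smallest possible p is higher, since the difference in set 4 female was 0. Gli1 was lower at 320 mg/dL in 5 of 6 cultures (exact permutation p = 0.0625) and Shh in 4 of 6 (exact permutation p = 0.125). At 120 mg/dL the exact permutation p was 0.125 for Gli1 and 0.625 for Shh. With 0 to 8 counts a library for Gli1 and 0 to 2 for Shh, changes of these genes in EVs were not detectable at this depth.

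The EV:cell ratio, the study's measure of how far a transcript is passed to EVs, was compared between doses, each EV library being paired with that of its own cells. No pathway gene passed the threshold: edgeR called 0 of 9 at 320 mg/dL (background 0%) and 0 of 9 at 120 mg/dL (background 0.00938%), and DESeq2 called 0 at both. At an unadjusted p under 0.05 there was 1 of 9 at 320 mg/dL (Hhip), against 1055 of all genes, and 0 of 9 at 120 mg/dL, against 701. The ratio of Hhip was lower at 320 mg/dL by -1.75 ± 0.48 on the log2 scale (adjusted p = 0.582), which joins its higher level in cells and lower level in EVs. The median change of the 9 was -0.12 (all genes -0.02).

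Between the sexes edgeR called 0 of 9 pathway genes in cells, where 5.67% of 18725 genes were called, with 2 (Cdon and Gli3) at an unadjusted p under 0.05 against 4203 of all genes, and DESeq2 called 1 (Cdon). Cdon ranged from 37.7 to 72.9 CPM in 9 female libraries (median 49.7) and from 9.50 to 43.4 CPM in 9 male libraries (median 30.2). The difference was 0.96 ± 0.31 on the log2 scale (adjusted p = 0.0744), and 1.15 with an adjusted p of 0.00235 once the pregnancy set was a block. With the 3 doses of each culture summed, which leaves 3 cultures a sex, the adjusted p was 0.789. The 3 libraries of set 5 male, at 9.50 to 12.5 CPM, lay below all others, the next of which was at 27.3 CPM. Shh, at -1.76 ± 0.91 (adjusted p = 0.263), had the largest estimate and the largest error, since the 3 males include both the highest and the lowest culture.

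In EVs 2 of 7 passed, where 12.4% of 13193 genes did. Hhip was higher in females (1.66 ± 0.42 on the log2 scale, adjusted p = 0.022), at 0.557 to 5.50 CPM (median 3.13) against 0 to 2.08 CPM (median 1.31) in males. Smo was lower in females (-0.73 ± 0.22, adjusted p = 0.0376), at 26.7 to 83.3 CPM (median 46.6) against 50.5 to 176 CPM (median 83.9). Neither passed when the 3 libraries of a culture were summed to compare 3 female with 3 male cultures (adjusted p = 0.315 for each), nor without set 5. Without set 4 neither Hhip (adjusted p = 0.196) nor Smo (adjusted p = 0.184) passed, and Smo missed the threshold without the 320 mg/dL EV library of set 4 female (adjusted p = 0.0629). With the pregnancy set as a block Cdon passed as well, higher in females by 0.73 on the log2 scale (adjusted p = 0.0273).

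In the lists around the pathway the sexes differed in cells for 4 of 11 ventral transcription factors tested (5.67% of all genes), each higher in females: Gsx2 (4.48 ± 0.78, adjusted p = 0.00319), Nkx2-1 (2.06 ± 0.34, adjusted p = 0.00221), Dlx2 (1.67 ± 0.34, adjusted p = 0.0081) and Lhx6 (1.49 ± 0.33, adjusted p = 0.0141). Nkx6-1 (1.48 ± 0.20, adjusted p = 0.000733), Ihh (0.90 ± 0.19, adjusted p = 0.00939) and the endocytic Shh-binding receptor Lrp2 (0.78 ± 0.20, adjusted p = 0.027) were higher in females as well. They were 1 of 8 target genes, 1 of 7 for ligands and release and 1 of 4 binding proteins tested. Of 21 genes for signal transduction and the cilium 2 passed, both lower in females. Of the 7 dorsal factors 0 passed. In EVs 2 of 3 binding proteins tested passed as higher in females. There 1 of 21 signal transduction genes and 1 of 6 target genes passed as lower, beside 12.4% of all genes called. Here too the 3 doses of each culture enter as separate libraries, and no result with the doses summed is given for these genes. The ventral factors were low, with medians over the 18 cell libraries of 0.156 CPM for Gsx2, 0.255 for Nkx2-1, 0.248 for Dlx2 and 0.171 for Lhx6. The highest culture mean was 5.41 CPM for Gsx2 (set 5 female) and 0.763 CPM for Dlx2 (set 4 female).

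The genes whose level in cells was most like that of Gli1, by Pearson's r of log2 CPM over the 18 cell libraries among 18724 genes, were Gm34442 (0.911), Gm20758 (0.909), Hprt (0.898), Aloxe3 (0.883) and the transfer RNA gene n-TKttt23 (0.882). The known output genes were far from it, with r = -0.69 for Ptch1 and -0.47 for Hhip, and r was 0.52 for Shh and 0.58 for Ccnd1. These values describe 18 libraries from 6 cultures, which share their culture, and carry the counting error of 7 to 39 Gli1 counts.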

How the data were processed

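RNA from EV and cell pellets was sequenced after ribosomal RNA depletion with a stranded kit. The authors trimmed and deduplicated reads, used STAR for alignment to mm39 and HTSeq for counting by gene. Raw counts were deposited. The strand setting and feature type are not given in the sources used here. Gene positions and lengths came from GENCODE (GRCm39, by symbol, 79% of features matched), and the check of genes inside other genes used RefSeq (GRCm38.p6).

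Counts were tested in R 4.3.3 with edgeR 4.0.16 (TMM, filterByExpr with a minimum count of 10 and total of 15 over the 12 conditions, quasi-likelihood F tests, Benjamini-Hochberg over all genes tested, threshold 0.05). The SE of a log2 fold change was taken as its size over the square root of F. Sex and dose were terms in the fit of EVs against cells. Sexes were compared with a term for dose, and ethanol doses with the culture as a block. Text and figures give TMM-scaled CPM, and log2 CPM used a prior count of 1. Alternatives were DESeq2 1.42.0, library totals, median-of-ratios size factors, no filter, thinning, leaving out sets or libraries, and blocks. The omission of single libraries and the filter by location were added after seeing the data. Tests were tested on simulated data.

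Libraries of a culture pair by origin. Correlations of their deviations from the condition mean over 4196 genes were 0.42 to 0.83 in cells and 0.16 to 0.73 in EVs between doses, all above 0.1, and -0.05 to 0.31 between EVs and cells. Female and male cultures of a set share a pregnancy, and theirs were -0.44 to 0.59 in cells.

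The 9 genes were always named. Of other lists, Gas1, Ccnd1, Nkx2-1, Olig2, Pax6 and Emx1 were named where their list was used, with up to 3 genes a direction of largest change past the threshold, and the 5 genes most like Gli1. Genes and lists were chosen with earlier results of these data known. No RNA level is a protein level, and no sequence was analysed here. Some list genes are not reported here. P-values measure the spread between these libraries.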

Additional observations from a re-analysis of the deposited data

Results flagged for a closer look

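Of 54 groups of 6 libraries (9 genes, 2 locations, 3 doses), 6 held a library that stood apart from the other 5 by Dixon's test on CPM. Chance flags about 1 in 20 groups of independent, normally spread values. The 3 doses share their cultures, so the groups are not independent and the count is given as a description. In cells, the male culture of set 3 stood apart in Shh at each dose, at 13.5 CPM in control (next 4.21), 15.5 at 120 mg/dL (next 3.00) and 17.7 at 320 mg/dL (next 1.90). The female culture of set 3 at 320 mg/dL was low in Smo (28.1 CPM, next 39.4) and high in Gli1 (1.43 CPM, next 0.593). In EVs at 320 mg/dL the female culture of set 5 was high in Hhip (3.57 CPM, next 1.03).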

How the results depend on the processing

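The count of the 9 genes past the threshold stayed at 0 for every ethanol, ratio and sex by dose comparison under each of 7 to 11 alternatives. Between EVs and cells it was 5, ranged from 4 to 6 when a set or library was left out, was 5 with the replicate block of paired EV and cell libraries, and was 3 in the 12 control libraries alone. Gli2, Gli3 and Boc turned from lower to higher in EVs with median-of-ratios size factors (0.59, 0.51 and 0.20 on the log2 scale), DESeq2 (0.58, 0.53 and 0.20) and thinning to the smallest total (0.84, 0.88 and 0.26). Gli2 ranged from -0.28 to 0.32 when a set or library was left out, the latter without the 320 mg/dL cell library of set 3 female, and Gli2 (0.52) and Boc (0.13) also turned higher with the filter set by location, both alternatives chosen after seeing the data. Ptch1 lost its call when thinned (-0.20), and Cdon with median-of-ratios factors, DESeq2, controls alone and thinning (-0.46, -0.46, -0.88 and -0.29). The cause was not tested; the median of all genes was 1.73 in DESeq2.

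Among cultures in EVs the count was 6, 3 with library totals, and 3 to 6 when a set or library was left out; in cells it was 7, and 6 to 8. Between sexes in cells it was 0, 0 with counts summed over doses, 1 with DESeq2, 1 with the pregnancy as a replicate block, and 0 to 1 when a set or library was left out (Cdon without set 3, or without the 120 mg/dL cell library of set 3 male, and Gli3 without set 4). In EVs it was 2, 3 with that block (Cdon added), 1 with library totals, 0 with counts summed over doses, and 0 to 2 when a set or library was left out (1 without the 320 mg/dL EV library of set 4 female). The replicate block changed no other count. EV depth limits Shh, Gli1 and Hhip most.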
